A study of Mus musculus with 2 samples.

Results

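Parietal epithelial cells line Bowman's capsule, the cup that surrounds each glomerulus, and the 10 genes described here mark these cells or their activation: Krt7, Krt8, Krt18, Krt19, Pax2, Pax8, Scin, Cd24a, Cd44 and Cdh6. They were taken from a list of gene names, and every probe whose RefSeq accession names one of them was used. Krt7, Krt8, Krt18 and Cdh6 lie on mouse chromosome 15, Pax8 and Cd44 on 2, Cd24a on 10, Krt19 on 11, Scin on 12 and Pax2 on 19. All 10 genes had a probe, giving 14 probes among 39429 gene probes and 10 genes among 20659 named genes on the array. Per the sample labels and the extraction protocol, the RNA came from glomeruli, collected with magnetic beads from digested kidney cortex, of male mice aged 8 months. The design text speaks of isolated podocytes instead, and that conflict was not settled. The groups were mice with Sirpa, the gene of the inhibitory receptor SIRPα, knocked out in podocytes only (Sirpa-/-) and wild-type mice (WT), with 1 array each. Mice of both groups had received 0.5 ml of pristane, an oil that induces lupus-like disease, into the peritoneum 4 months before. Each array thus comes from injected mice, and neither shows an uninjected kidney. The labels name neither the driver of the podocyte-specific deletion nor the number of animals behind an array. A single array stands for each group, so nothing was tested, no p-value is given, and each difference describes this pair of arrays only. The study's title asks whether podocytes without SIRPα present antigen to T cells in lupus nephritis. The genes below mark the epithelial cells next to those podocytes, but other cells carry some of them too.

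Quiescent parietal cells are flat and carry the transcription factors of the nephric lineage, PAX2 and PAX8. When glomeruli are injured, as in crescentic nephritis, these cells can enlarge, switch on the hyaluronan receptor CD44, migrate and lay down matrix. Simple-epithelial keratins, CD24 and cadherins are shared with tubule cells, and CD44 and CD24 are also found on leukocytes, so in whole glomeruli none of these genes reports on parietal cells alone. In bulk RNA, fewer cells of a type and less RNA per cell cannot be told apart.

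Differences between the 10 genes were small. Of the 9 genes well above background on both arrays, 0 passed 2-fold upward and 0 downward on the Sirpa-/- array. Among all 18240 named genes measured on both arrays, 1.57% lay 2-fold or more above the WT array and 1.67% lay 2-fold or more below it, 3.23% in all. Of the 9 genes, 7 lay above 0 and 2 below, while 50.3% of all genes lay above 0. Their median log2 difference, Sirpa-/- minus WT, was 0.12, beside 0.0017 over all genes. Krt8 was above background on the Sirpa-/- array only. Counting it at its difference as measured gave a median of 0.12 over 10 genes. Krt8 enters that count only through the array where it was higher. Pax8, on the lower side, was the only one of the 9 genes to reach 1.5-fold. That size was reached by 9.62% of all genes, 4.35% upward and 5.27% downward. Of the 9 genes, Krt18 lay highest, Pax8 and Scin lowest, and Cd44, the activation marker, was nearly level.

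Signals below are processed intensities, meaning the brightness of a spot after subtraction of background. The log2 difference is taken after each array was scaled to the 75th percentile of its gene probes, a signal of 1109 on the Sirpa-/- array and 1158 on the WT array. The error given with a difference is the scanner software's own estimate for 1 spot on each array, which contains no biological variation. The lowest signal well above background was 6.21 on the Sirpa-/- array and 6.72 on the WT array, and 0 gene spots were saturated. Well above background were 86.7% of gene probes on the Sirpa-/- array and 85.3% on the WT array. For probes spotted 10 times, the log2 differences of single spots had an SD whose median was 0.30 at mean signals under 30, 0.12 at signals of 30 to 300 and 0.05 above 300. The central 80% of all genes lay between -0.37 and 0.34, and the central 95% between -0.84 and 0.79. Sirpa itself had a signal of 17316 on the array labelled Sirpa-/- and 11624 on the WT array, a log2 difference of 0.64 ± 0.20 (software error), which goes against the label. Its only probe has no known place relative to the deletion, and other glomerular cells keep the gene, so it may check nothing. "Sirpa-/- array" below means the array labelled so, and every direction rests on that label.

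**Figure D1:**
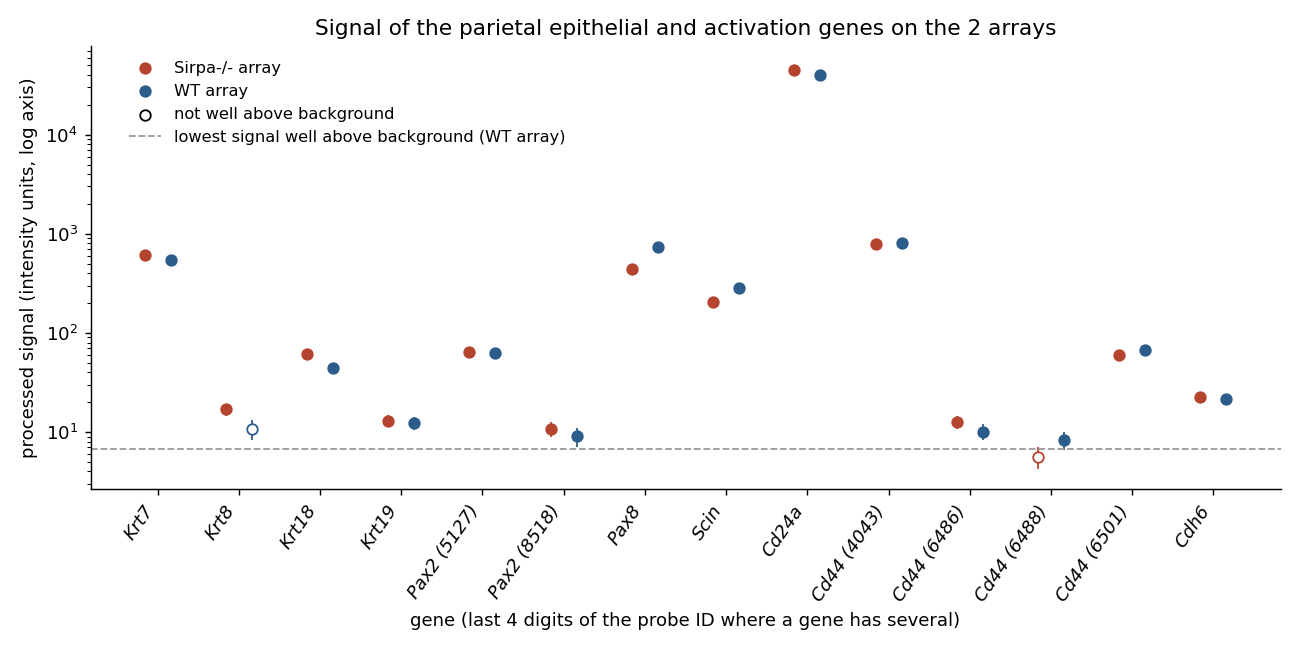
Processed signal (log axis) of the 14 probes on the Sirpa-/- array (left point of each pair) and the WT array (right point), with bars for the software's error. Krt8, Krt19, the dim Pax2 probe and both dim Cd44 probes lie close to the detection limit (dashed line), and the left point lies visibly lower for Pax8 and Scin and higher for Krt18.

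The keratins form the cytoplasmic filaments of simple epithelia, and each filament pairs a type II keratin with a type I keratin. Krt8 (type II) and Krt18 (type I) are the usual partners in single-layered epithelia. Krt18 (probe A_51_P324814) had a signal of 61.6 on the Sirpa-/- array and 44.1 on the WT array, 1.46-fold higher (log2 difference 0.54 ± 0.21, software error). That difference lay outside the central 80% of all genes and inside the central 95%. Krt8 (probe A_55_P2128501) gave 17.01 on the Sirpa-/- array and 10.7 on the WT array, where it was not well above background. As measured it was 1.65-fold higher on the Sirpa-/- array (log2 difference 0.72 ± 0.38, software error). At such signals spots of repeated probes scatter widely.

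Krt7, the type II keratin of ducts and urothelium, gave 604 on the Sirpa-/- array and 548 on the WT array, a log2 difference of 0.20 ± 0.20. Krt19, a small type I keratin of ducts and of some parietal cells, gave 13.0 on the Sirpa-/- array and 12.5 on the WT array, a log2 difference of 0.12 ± 0.29. Both differences were no larger than their error. The 3 keratins measured on both arrays thus lay above 0, but 2 of them by no more than the software's error. Krt8 is not counted with them, since it was above background only on the array where it was higher. Repeated spots had a median SD of 0.05 at signals above 300, as for Krt7. Under 30, as for Krt19, it was 0.30. Keratins 8 and 18 have processed pseudogenes, and whether their probes also read these was not tested.

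Of 49 keratin genes on the array, 40 were measured on both arrays, of which 19 lay above 0 and 21 below. A further 4 were above background on the Sirpa-/- array only, and 0 on the WT array only. They were Krt8 and the dim genes Krt4, Krt39 and Krt32. Krt4 and Krt32 were at least 1.23-fold and 1.08-fold higher, and Krt39 was 1.15-fold higher as measured. The median of the 40 was -0.07 and 0 of them reached 2-fold in either direction. The widest differences were 0.90 for the hair keratin Krt34, from signals of 21.8 on the Sirpa-/- array and 12.2 on the WT array, and 0.70 for Krt78, from 12.1 and 7.75. Both are dim.

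Krt8 and Krt18 lie side by side on chromosome 15, with no gene measured on both arrays between them, and are read outward in opposite directions. The genes around the pair differed unevenly: Krt78 (0.70) at a dim signal and the translation factor Eif4b (0.50) were higher on the Sirpa-/- array, Tns2, a focal adhesion protein of podocytes, gave 0.28, Krt79 0.08 and Krt76 -0.10. The median over the 6 nearest measured genes of Krt18, Krt8 itself not being among them, was 0.18. The 250 bases before the annotated start of each gene of the pair are shown because Krt18 had the highest difference of the 9 measured genes. They come from RefSeq, and promoters of 8 of the 10 genes were in that table. Capitals mark matches, on either strand, to 4 motifs: AP-1 (TGANTCA), the GC box (GGGCGG), the CCAAT box (CCAAT) and the TATA box (TATAAA), no match to one overlapping a match to another in the windows shown.
Krt8, GRCm38.p6 chr15:102004343-102004592, minus strand: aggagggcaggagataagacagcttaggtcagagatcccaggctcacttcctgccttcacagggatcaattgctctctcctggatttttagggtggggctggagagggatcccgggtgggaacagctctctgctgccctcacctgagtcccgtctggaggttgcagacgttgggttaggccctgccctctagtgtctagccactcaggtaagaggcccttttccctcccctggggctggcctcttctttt
Krt18, GRCm38.p6 chr15:102027966-102028215, plus strand: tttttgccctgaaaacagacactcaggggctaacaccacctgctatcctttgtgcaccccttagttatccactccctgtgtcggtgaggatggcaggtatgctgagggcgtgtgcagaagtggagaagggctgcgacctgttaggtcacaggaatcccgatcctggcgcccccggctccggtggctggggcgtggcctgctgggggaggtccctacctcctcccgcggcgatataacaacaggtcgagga
Neither window held any of the 4 motifs as spelled. Among 32851 promoter windows of that length, 6.75% held the AP-1 motif, 32.7% the GC box, 33.8% the CCAAT box and 12.4% the TATA box. GC made up 58.0% of the Krt8 window and 60.4% of the Krt18 window, beside a median of 52.4% over all windows, but Krt8 had 3 CpG and Krt18 12, beside a median of 6.

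PAX2 and PAX8 are paired-box transcription factors that specify the nephric lineage, act partly in each other's place in the embryo and remain in parietal cells of the adult, PAX8 in tubule cells too. Pax8 (probe A_55_P2039532) gave 442 on the Sirpa-/- array and 740 on the WT array, 1.60-fold lower (log2 difference -0.68 ± 0.20). This was the widest difference of the 9 genes, at a signal far above background, yet it stayed inside the central 95% of all genes. Pax2 had 2 probes. The brighter one gave 64.2 on the Sirpa-/- array and 63.0 on the WT array, a log2 difference of 0.09 ± 0.21, and the dimmer one gave 10.6 and 9.09, a difference of 0.29 ± 0.41. Neither Pax2 difference exceeded its error, and both lay on the other side of 0 from Pax8.

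Scin encodes scinderin, also called adseverin, a calcium-dependent protein of the gelsolin family that severs actin filaments. Its signal (probe A_51_P335460) was 205 on the Sirpa-/- array and 286 on the WT array, 1.34-fold lower (log2 difference -0.42 ± 0.20). It lay just outside the central 80% of all genes. The array surface around these spots was nearly level. The 200 measured gene spots around the Pax8 spot had a median log2 difference of 0.01, and the 187 around the Scin spot one of -0.07. Over all 14 probes these local medians ran from -0.07 to 0.08. The 250 bases before the start of these genes are given as those with the lowest differences, with capitals as before.
Pax8, GRCm38.p6 chr2:24475600-24475849, minus strand: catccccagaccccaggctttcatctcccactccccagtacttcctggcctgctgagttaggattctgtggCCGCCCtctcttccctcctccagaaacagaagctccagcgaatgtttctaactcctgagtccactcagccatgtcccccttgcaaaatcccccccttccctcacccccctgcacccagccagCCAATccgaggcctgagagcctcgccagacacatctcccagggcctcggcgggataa
Scin, GRCm38.p6 chr12:40134229-40134478, minus strand: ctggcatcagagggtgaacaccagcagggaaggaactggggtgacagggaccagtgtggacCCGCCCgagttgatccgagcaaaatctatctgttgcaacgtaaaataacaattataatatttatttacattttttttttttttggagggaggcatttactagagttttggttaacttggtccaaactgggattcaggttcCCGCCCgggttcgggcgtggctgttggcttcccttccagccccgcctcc
The Pax8 window held 1 GC box and 1 CCAAT box, and the Scin window held 2 GC boxes. These are matches of letters only. The 6 nearest measured genes of Pax8 on chromosome 2 had a median of -0.03, from -0.64 for Il1rn, at dim signals, to 0.30 for Il1f10. Those of Scin on chromosome 12 had a median of -0.02, from -0.60 for Lsmem1 to 0.32 for Arl4a.

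**Figure D2:**
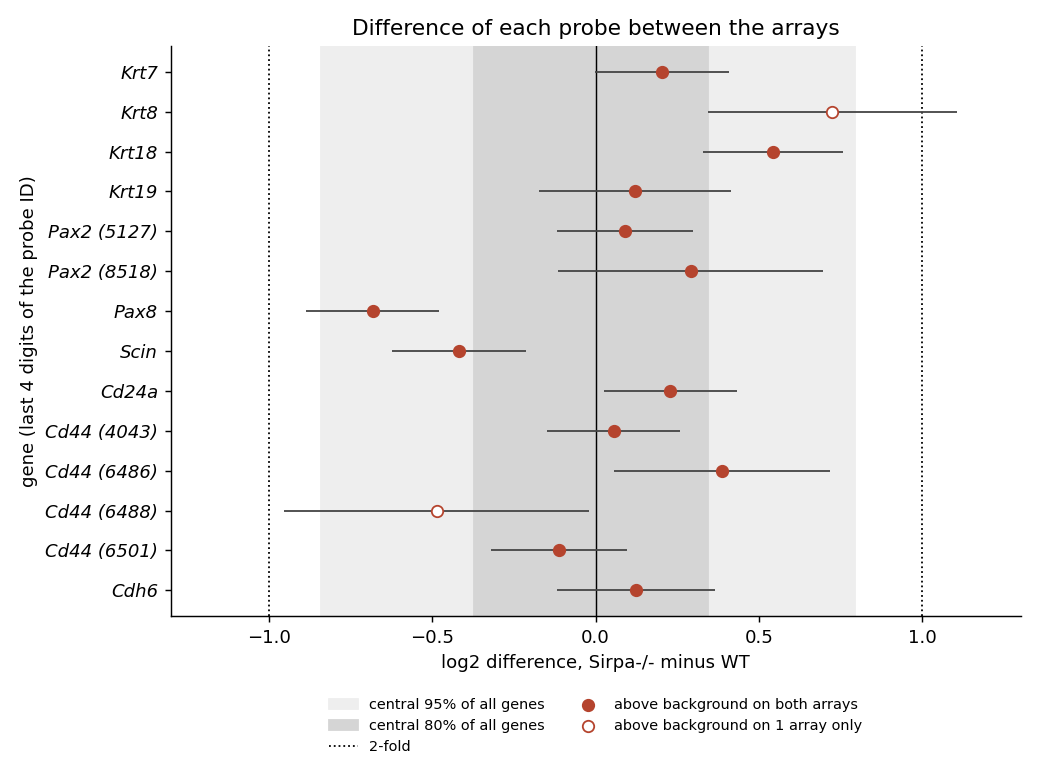
Log2 difference (Sirpa-/- minus WT) of each of the 14 probes, with bars for the software's error, on shading for the central 80% and 95% of all genes and dotted lines at 2-fold. Pax8 and Scin lie to the left, Krt8 (open point, above background on the Sirpa-/- array only) and Krt18 to the right, and no point passes 2-fold.

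Cd24a encodes the small, heavily glycosylated surface protein CD24, which in human kidney marks parietal cells with progenitor features and in mouse is abundant on immature B cells and erythroid precursors. Its signal (probe A_52_P244193) was 44708 on the Sirpa-/- array and 39833 on the WT array, 1.17-fold higher (log2 difference 0.23 ± 0.20). The difference was about as large as its error, although at such signals repeated spots scatter little. CD24 relatives without introns exist in the mouse genome, and whether the probe also reads them was not tested.

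Cd44 encodes the receptor for hyaluronan that appears on parietal cells when they are activated and that most leukocytes carry. It had 4 probes. The brightest (A_55_P2064043) gave 797 on the Sirpa-/- array and 801 on the WT array, a log2 difference of 0.05 ± 0.20. The next gave 60.0 on the Sirpa-/- array and 67.7 on the WT array, a difference of -0.11 ± 0.21. The remaining pair sat near the detection limit. One of these gave 12.7 on the Sirpa-/- array and 10.1 on the WT array, a difference of 0.39 ± 0.33. The other was above background on the WT array only, at 5.64 on the Sirpa-/- array and 8.24 on the WT array, at least 1.27-fold lower on the Sirpa-/- array. The 2 brighter probes differed by less than their error, and the 2 dim ones pointed in opposite directions. The 3 probes measured on both arrays spanned 0.50 on the log2 scale, beside a median span of 0.20 over 4562 genes with several measured probes. CD44 has many splice forms, and which forms each probe reads is not given in the files.

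Cdh6 encodes cadherin-6, an adhesion protein of the developing nephron that persists in proximal tubule and parietal cells. It gave 22.5 on the Sirpa-/- array and 21.6 on the WT array, a log2 difference of 0.12 ± 0.24, smaller than its error. Of the 14 probes in all, 7 had a difference larger than the software's error and 3 one larger than 2 such errors, those of Krt18, Pax8 and Scin. These 3 genes had 1 probe each, so no further probe speaks to them.

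**Figure D3:**
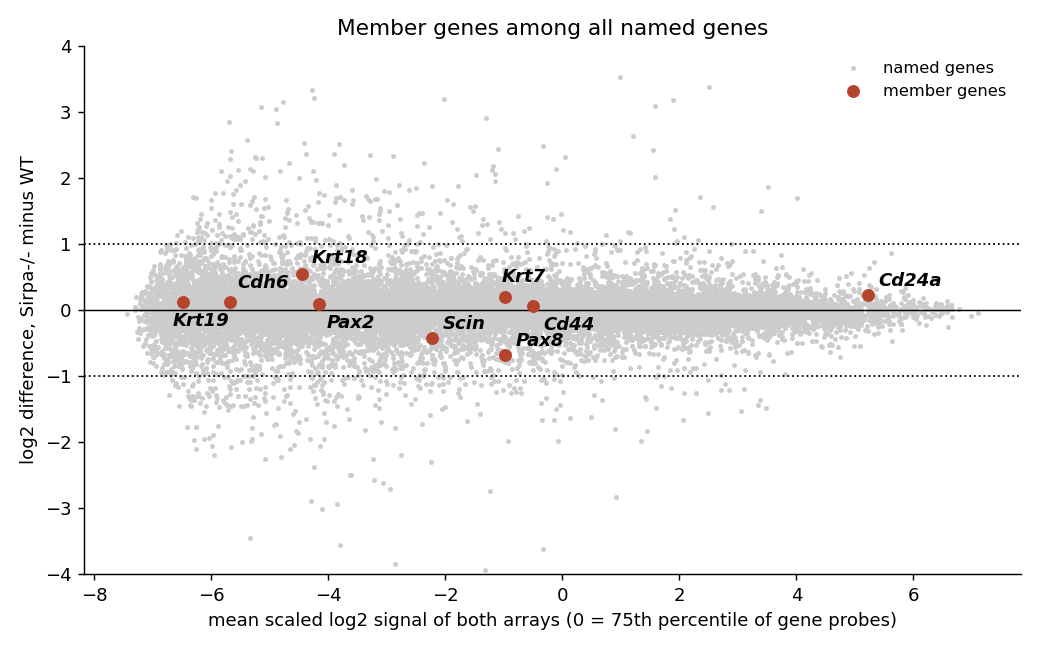
Log2 difference (Sirpa-/- minus WT) against the mean scaled log2 signal of both arrays for the named genes (grey) and the 9 measured member genes (red), with dotted lines at 2-fold; 5 genes lie beyond the vertical axis. The member genes run from dim to bright signals, and all lie between the 2-fold lines.

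Other genes that mark parietal cells did not move as a group. Of 8 such genes all 8 were measured, with 4 above 0 and 4 below, a median of 0.11 and 1 at least 2-fold lower. The adhesion molecule gene Ncam1, counted below 0 at -0.06, gave 0.96 and -0.29 on its other probes. The tight junction gene Cldn1, a defining parietal marker, gave 388 on the Sirpa-/- array and 334 on the WT array, a log2 difference of 0.28. The stem cell surface gene Prom1 gave 0.30 (0.27 on its other probe), ceruloplasmin (Cp) 0.36 and the scaffold gene Akap12 -0.32. The adhesion molecule Vcam1, found on parietal cells and on activated endothelium, was the exception. Its signal was 1866 on the Sirpa-/- array and 4840 on the WT array, a log2 difference of -1.31, with -0.91 on its other probe.

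Of 14 genes tied to parietal activation and migration, 5 lay above 0 and 9 below, the median was -0.35, and 2 were at least 2-fold higher. The chemokine Cxcl12 gave 5863 on the Sirpa-/- array and 9297 on the WT array, a log2 difference of -0.60 (-0.89 on its other probe). Its receptors Cxcr4 (-0.68) and Ackr3 (-0.74) lay on the same side. So did the tetraspanin Cd9 (-0.65), the growth factor Hbegf (-0.80) and its receptor Egfr (-0.50, with -0.71 and -0.04 on other probes). The proliferation marker Mki67 gave 950 on the Sirpa-/- array and 1964 on the WT array, a difference of -0.99, with -1.0 on its other probe. On the other side were Spp1, the matrix protein osteopontin and a ligand of CD44, which was 2.53-fold higher, and Cd74, the invariant chain that is also a receptor of the cytokine MIF, which was 2.44-fold higher. The Notch target Hes1 gave 0.70, while the receptor gene Notch1 gave 0.20 on its brightest probe, by which it was counted, and -1.65 on its other probe.

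Of 13 hyaluronan and CD44 partners 12 were measured, 0 reached 2-fold on their brightest probe and the median was -0.06. The widest values on those probes were -0.54 for the hyaluronan receptor Hmmr, which is also a gene of dividing cells, -0.33 for the hyaluronidase Hyal1, -0.18 for the hyaluronan synthase Has1 at signals of 11.9 and 14.1, and -0.17 for moesin (Msn), which ties CD44 to actin. Radixin (Rdx), a relative of moesin, gave -0.05 on its brightest probe but -0.96 on its other probe.

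Among desmosome and keratin linker genes, which anchor keratin filaments at junctions, 7 of 11 measured genes lay above 0, 0 reached 2-fold and the median was 0.10. Desmoplakin (Dsp), the main anchor of keratin filaments, gave 2230 on the Sirpa-/- array and 1256 on the WT array, a log2 difference of 0.89. Plakoglobin (Jup) gave 0.53 and desmoglein-2 (Dsg2) 0.35, while epiplakin (Eppk1), a dim keratin-binding linker, gave -0.52. Cadherins and catenins had a median of -0.11 over 11 measured genes. E-cadherin (Cdh1), the adhesion protein of distal epithelia, gave 267 on the Sirpa-/- array and 150 on the WT array, a difference of 0.89. T-cadherin (Cdh13) gave 82.2 on the Sirpa-/- array and 295 on the WT array, a difference of -1.78, and was the only gene of that list past 2-fold. N-cadherin (Cdh2) gave -0.32 (-0.12 on its other probe) and the kidney-specific Cdh16 0.22.

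Nephric lineage genes, listed together with the other PAX genes, had a median of -0.12 over 16 measured genes, with 5 above 0, 11 below and 1 at least 2-fold lower. Without the PAX genes, 3 of 11 lay above 0 and 8 below, with a median of -0.16. The gene past 2-fold was Ret, the receptor of the ureteric bud, with a signal of 113 on the Sirpa-/- array and 316 on the WT array, a log2 difference of -1.42. Its ligand gene Gdnf gave -0.92, from 72.6 on the Sirpa-/- array and 143 on the WT array. Pax5, the paired-box factor of B cells, gave 0.84, but 0.07 on its other probe, and Wt1, a factor of podocytes, gave 0.28. The gelsolin family, to which Scin belongs, had a median of -0.0044 over 6 measured genes. Of these the villin-like gene Vill gave 0.56, supervillin (Svil) 0.42 (0.44 on its other probe), Vil1 -0.22 and Capg -0.19.

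**Figure D4:**
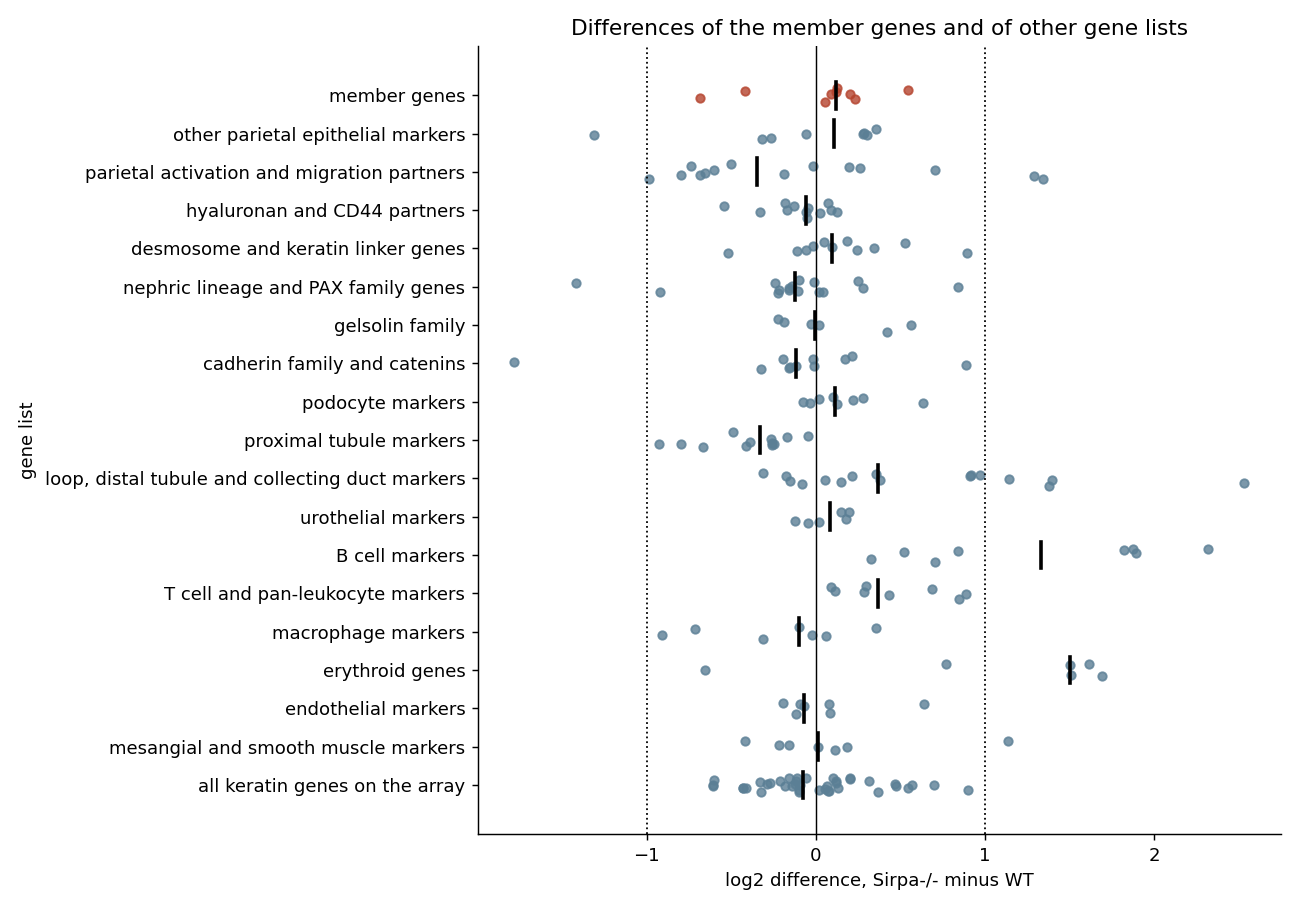
Log2 differences (Sirpa-/- minus WT) of the measured genes of each list, 1 point per gene, with a black bar at the list's median and dotted lines at 2-fold; the vertical scatter within a row has no meaning. The 9 member genes (red, top row) centre on 0.12, the proximal tubule list lies wholly below 0, and the B cell and erythroid lists lie furthest above.

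Markers of other cell types that carry some of the 10 genes differed between the arrays. The loop, distal tubule and collecting duct list, whose cells express the same keratins and Cd24a, had 12 of 16 genes above 0, a median of 0.37 and 4 genes at least 2-fold higher: Slc12a3 (5.77-fold), Calb1 (2.63-fold), Kcnj1 (2.60-fold) and Epcam (2.21-fold). Its summed signal was 6380 on the Sirpa-/- array and 4308 on the WT array. All 12 proximal tubule markers lay below 0, with a median of -0.33, a summed signal of 25581 on the Sirpa-/- array and 35511 on the WT array, and Aqp1 (-0.93) and Slc5a12 (-0.80, and -0.76 on its other probe) lowest. Proximal tubule cells express Cdh6 and, like other tubule cells, Pax8. Pax8 gave -0.68 and Cdh6 0.12, on opposite sides of 0. Urothelial markers had a median of 0.08 over 6 measured genes, with Upk1b (0.20) and Psca (0.18) widest, beside the 0.20 of Krt7.

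B cell markers, which matter for Cd24a and Cd44, were all 8 above 0, with a median of 1.33 and a summed signal of 3909 on the Sirpa-/- array and 1070 on the WT array. Cd22 (4.99-fold), Fcmr (3.71-fold), Cd79b (3.66-fold) and Ms4a1 (3.54-fold) were past 2-fold. Erythroid genes had a median of 1.5 over 6 measured genes and a summed signal of 53286 on the Sirpa-/- array and 18217 on the WT array, of which Alas2 was 3.06-fold higher and the globins Hbb-bt, Hba-a1 and Hbb-bs 3.23-fold, 2.84-fold and 2.83-fold. T cell and pan-leukocyte markers were all 8 above 0 with a median of 0.37, Cd2 (0.89, and 0.32 on its other probe) and Cd3g (0.85) highest, while macrophage markers had a median of -0.10 over 7 genes. Of these Adgre1 gave -0.91 (-0.73 on its other probe), Cx3cr1 -0.71 (only -0.09 on its other probe) and Mrc1 0.36. Each measured marker of these lists had a signal above background on both arrays, which the rule for measured genes requires. The part of these cell types in the differences of the 10 genes was not tested.

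The median of 8 podocyte markers was 0.12, with Nphs1 (0.63) and Wt1 (0.28) widest, that of 7 endothelial markers -0.07, with Plvap (0.64, and 0.42 on its other probe) and Kdr (-0.20, and 0.09 on its other probe) widest, and that of 7 mesangial and smooth muscle markers 0.01, with Myh11 (2.19-fold higher, at dim signals of 37.4 and 17.8) and Itga8 (-0.42) widest. Of the listed markers of these cells, of tubules and of blood cells, each one on the array was well above background on both arrays.

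**Figure D5:**
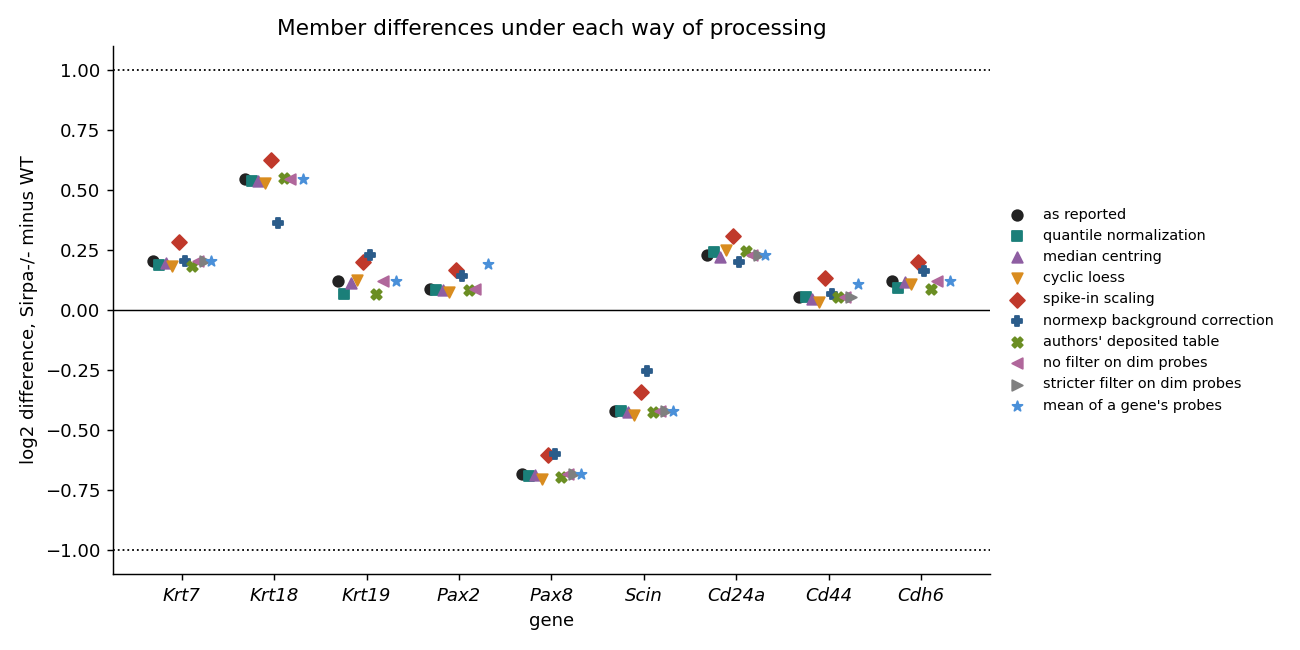
Log2 difference (Sirpa-/- minus WT) of the 9 measured genes as reported and under 9 other ways of processing, 1 symbol for each, with dotted lines at 2-fold. No gene crosses 0 or 2-fold under any of them, Pax8 stays between -0.70 and -0.60, and Krt18 is lowest, at 0.36, with normexp background correction.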

How the data were processed

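RNA of glomeruli was hybridised to 2 one-colour Agilent arrays, 1 per group, on slide 1. Per the file headers, the authors used version 11.0.1.1 of Agilent Feature Extraction, and the deposited processed intensity is background-subtracted and detrended within each array but not normalized across them. Version 9.1 stands in the submitters' processing notes. Per the file headers, the deposited files also give the software's error, median intensities of spot and local background, and further (other) columns of 0 or 1 that flag quality. The authors' deposited table of log2 values, whose steps no source used here gives, served as an alternative.

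From the processed intensity, log2 was taken, spots marked as outliers were left out, spots of a probe were averaged, and each array's 75th percentile over gene probes was subtracted. A probe counted as measured when, on each array, over 50% of its spots passed the well-above-background flag. RefSeq accessions named 27234 probes through a table of GRCm38.p6, while the array was designed on an older build, so that table gave names and gene order only. A gene with several probes is represented by its brightest. For a bound, the dim signal was raised to that array's lowest signal well above background where it lay under it. For Krt8 and Krt39 it did not, so their fold is the measured one. Local medians cover gene spots within 10 rows and 5 columns. Genes were counted by a fixed fold of 2. The number of arrays limits the precision.

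The member genes and lists were chosen with earlier results of these data known. Named are all member genes, every listed gene past 2-fold, the widest 2 of each cell type list and, for lists of relatives, the widest 4. Cldn1, Ncam1, Cd9, Cxcl12, Cxcr4, Ackr3, Egfr, Hes1, Notch1, Rdx and Mrc1 were named after their values were seen. So were the keratins other than members and the neighbours of Krt18, Pax8 and Scin. A listed gene was left out of its list and is not reported here. The counting step was tested on simulated data. Python 3.11.15, R 4.3.3 and limma 3.58.1 were used. Alternatives were quantile normalization, median centring, cyclic loess, spike-in scaling, normexp (offset 50, on median signals, since mean signals were not among the columns), the authors' table, averaging the probes of a gene, other filters on dim probes and folds of 1.5 and 3.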

Additional observations from a re-analysis of the deposited data

How the results depend on the processing

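The 9 measured genes were recomputed in 9 ways, giving 77 values, since a stricter filter on dim probes (mean signal above the median) measured 5 of them. Of these, 21 are identical to the reported values by construction, since changing the filter leaves a gene's probe as it was and averaging leaves genes with 1 probe. Of the other 56 values 0 reached 2-fold, 0 had another sign, and 42 moved by less than the median SD of repeated spots. That SD was 0.068, taken over all signals together rather than by brightness. Scaling on 130 spike-in spots moved all differences up by 0.08, and with it the median of the 9 genes to 0.20. The largest single move was that of Krt18 to 0.36 with normexp. The count of genes past 2-fold over the whole array, 286 higher and 304 lower (590), was 113 higher and 79 lower (192) with normexp, 671 and 613 (1284) with no filter, and 113 and 127 (240) with the stricter filter. At 1.5-fold it was 794 and 961 (1755), with 1 of the 9 genes (Pax8), and at 3-fold 99 and 73 (172). Higher genes made up 48.5% of those past 2-fold, 58.1% with spike-in scaling and 58.9% with normexp. Both arrays lay on 1 slide, so the slide as a block could not be fitted. No paired analysis was possible because each group has 1 array. Near the detection limit, as for Krt8, Krt19, Cdh6 and the dim probes of Pax2 and Cd44, a difference as small as the 0.30 that repeated spots scatter by was not detectable.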
